A study of Mus musculus with 4 samples.

Results

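The genes described here are 10 genes of excitation-contraction coupling: Cacna1s, Cacng1, Ryr1, Casq1, Casq2, Atp2a1, Jph1, Jph2, Trdn and Stac3. They were chosen by symbol, and every row that names one of them was taken from both MyoD peak lists. Of the 7235 genes that the lists name, 9 were in this group, and Casq1 had no row in either list. MyoD, a transcription factor of the muscle lineage, was mapped by ChIP-seq in myotubes, the fused multinucleated cells grown from primary myoblasts. The myoblasts came from C57BL/6 mice of 2 weeks of age and were differentiated for 5 days in 2% horse serum. One group was then kept for 24 hours in differentiation medium with pyruvate and the other in the same medium without it. No genetic change is given in the labels for either group.

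The 4 samples were 1 MyoD ChIP and 1 input per condition, and the peak lists of the ChIP samples were analysed. The list labelled with pyruvate held 11907 peaks and the list labelled without pyruvate held 19338. There was 1 library per condition, so differences between the lists carry no replicate error and no test was run. The depth of sequencing is not known, and a site without a call in 1 list may simply have fallen below detection. The condition of each list was taken from the sample titles, since the abbreviations in the deposited file names can be read the other way round. No expression was measured; of 4 muscle genes looked up as a check of the cell type, Myog, Des and Acta1 had a peak in both lists and Ckm only in the list with pyruvate.

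Excitation-contraction coupling is the chain of events by which an action potential in the muscle membrane releases calcium from the sarcoplasmic reticulum. The voltage sensor in the transverse tubule, a calcium channel, contacts the ryanodine receptor in the facing reticulum membrane and opens it. Junctophilins hold the facing membranes together, calsequestrin stores calcium inside the reticulum, triadin ties calsequestrin to the release channel, and a calcium pump refills the store. Many of these genes are switched on as myoblasts become myotubes.

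MyoD peaks lay at most of these genes in both conditions. Of the 10 genes, 8 had a peak in the gene body or a 2-kb flank in both lists, against 55.1% of all genes that the lists name and 15.2% of RefSeq protein-coding genes. The 8 were Cacna1s, Cacng1, Ryr1, Atp2a1, Jph1, Jph2, Trdn and Stac3. Casq2 had a peak only in the list without pyruvate, a class that held 35% of the named genes and 9.28% of the RefSeq genes. None of the 10 had a peak only in the list with pyruvate, a class of 9.95% and 2.62%. The named genes have a peak by definition, which Casq1 does not, so both backgrounds are given.

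**Figure D1:**
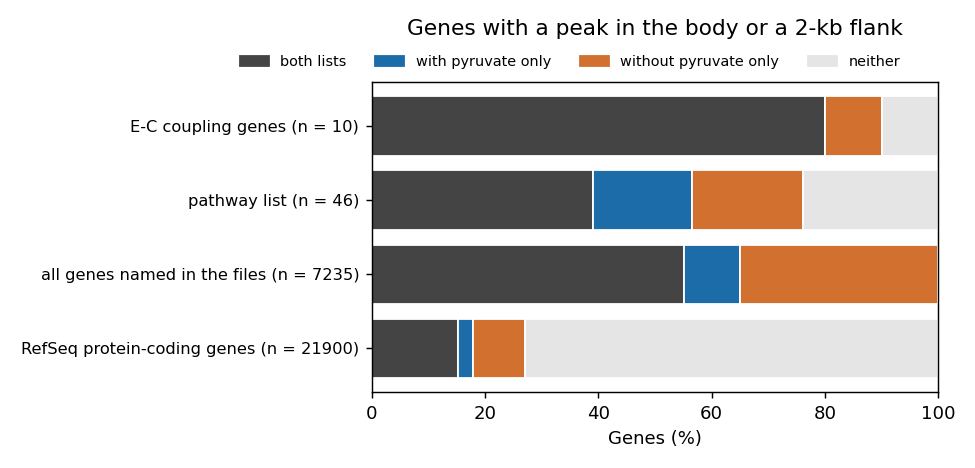
Share of genes (%, horizontal axis) with a peak in both lists, in 1 list or in neither, for the 10 excitation-contraction coupling genes, a list of 46 other genes of the pathway, all 7235 genes named in the files and 21900 RefSeq protein-coding genes. Peaks in both lists were at 80% of the 10 genes, 39.1% of the pathway list, 55.1% of the named genes and 15.2% of the RefSeq genes.

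The list with pyruvate held 19 peaks at these genes and the list without held 17, although the list without was 1.62 times as long overall. A peak was counted as shared when it overlapped one of the other list, by as little as 1 base. Of the 19 peaks 16 were shared, which is 84.2% (60.4 to 96.6 as the 95% exact binomial interval), against 71.8% of all peaks in that list and 71.5% of its peaks in gene regions. Of the 17 peaks, 16 did, or 94.1% (71.3 to 99.9), against 44.2% of all peaks in that list and 46.9% of its peaks in gene regions. The interval for the 19 peaks holds the value for all peaks, and the interval for the 17 does not. These intervals cover counting error only and treat peaks of 1 gene as separate observations, which they may not be. The single peak without a partner in the list without pyruvate was the one at Casq2. The 3 without a partner in the list with pyruvate lay at the start of Cacna1s, within Atp2a1 and within Jph2.

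**Figure D2:**
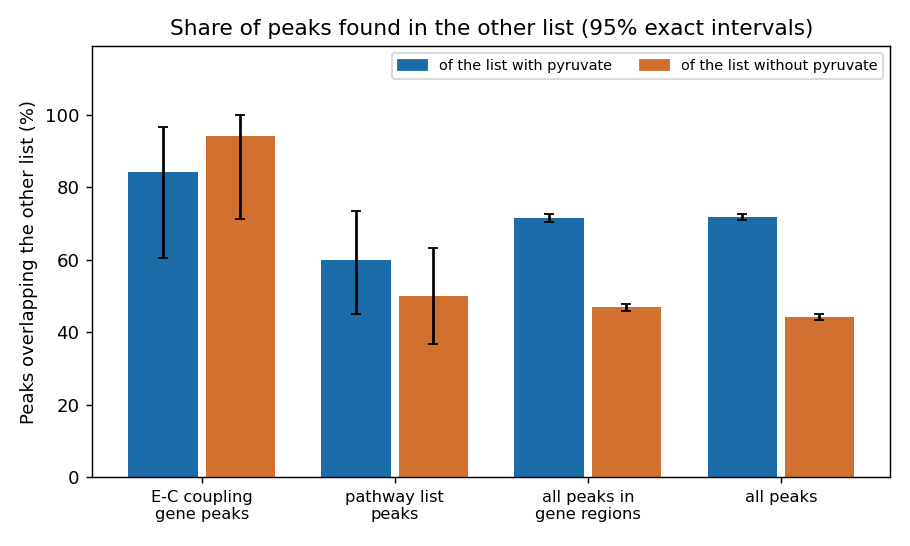
Share of peaks that overlap the other list (%, vertical axis) for peaks at the excitation-contraction coupling genes, peaks at the 46 pathway genes, all peaks in gene regions and all peaks, with 95% exact binomial intervals as error bars. In the list without pyruvate the share was 94.1% at the excitation-contraction coupling genes, 50% at the pathway genes and 44.2% over all peaks.

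Wider peaks overlap the other list more often, and the peaks at these genes were wide. Their median width was 347 bases in the list with pyruvate and 319 bases in the list without, against 250 and 241 bases over all peaks. In the list with pyruvate 15 of the 19 were wider than the list's median, and in the list without 12 of the 17. Within width classes of the list without pyruvate, 3 of 4 peaks under 200 bases had a partner, against 21.7% of all such peaks in gene regions. All 4 peaks of 200 to 299 bases had one (44.4% of such peaks in gene regions), as did all 7 of 300 to 399 bases (75.4%) and both peaks of 400 bases or more (84.9%). In the list with pyruvate the shares lay on either side of the background. There 2 of 3 peaks under 200 bases had a partner (53.3% of such peaks in gene regions), 2 of 3 of 200 to 299 bases (71.4%), all 7 of 300 to 399 bases (84.0%) and 5 of 6 of 400 bases or more (88.4%). Whether the width accounts for the share at these genes was not tested.

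A peak near the start of the gene, within 2 kb, was present in both lists at 5 of the 10 genes: Cacng1, Ryr1, Atp2a1, Jph1 and Stac3. This class held 18.7% of the named genes and 4.52% of RefSeq protein-coding genes. Cacna1s had such a peak only in the list with pyruvate (6.01% of the named and 1.43% of the RefSeq genes), and no gene of the 10 had one only in the list without (17.7% and 4.13%). Jph2, Trdn and Casq2 had peaks further inside the gene alone. By peaks, 8 of 19 in the list with pyruvate lay within 2 kb of a start, or 42.1% (95% exact interval 20.3 to 66.5), against 22.2% of all its peaks in gene regions. In the list without it was 7 of 17, or 41.2% (18.4 to 67.1), against 21.2%. In both lists the background lies within the interval. Starts were located for every gene of the group with rows. For other genes without a located start, the backgrounds count a flank peak at either end of the gene as near the start. The backgrounds are therefore counted by a looser rule.

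**Figure D3:**
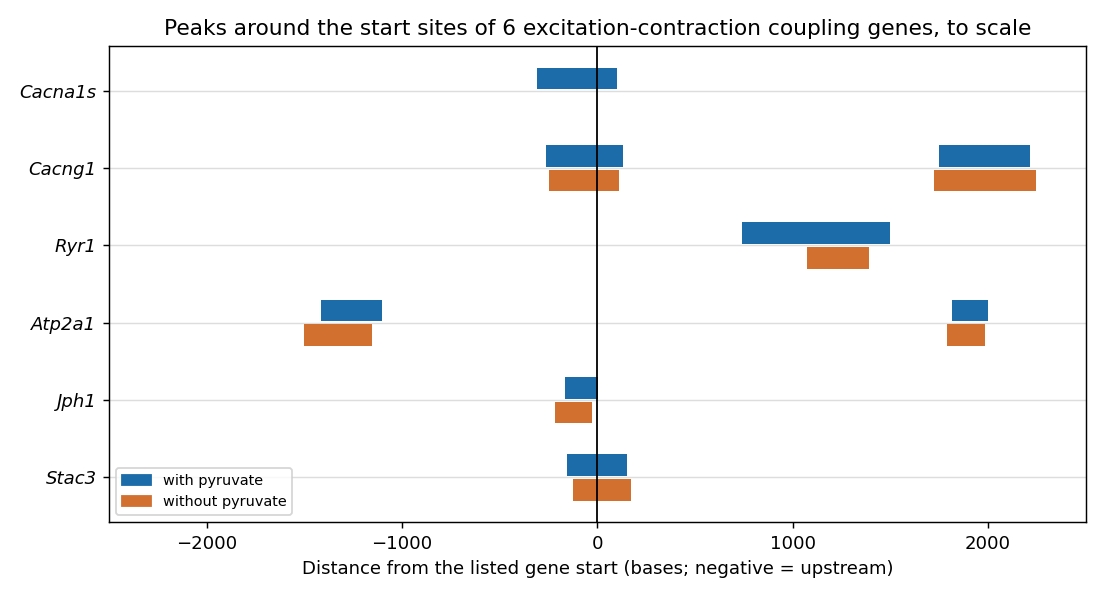
Position of each peak within 2500 bases of the listed gene start (horizontal axis, bases, negative values upstream) for the 6 genes with a peak within 2 kb, drawn to scale, with the list with pyruvate above and the list without pyruvate below each line. The peaks of the lists overlap at Cacng1, Ryr1, Atp2a1, Jph1 and Stac3. The Ryr1 peak is wider with pyruvate, and the Cacna1s peak over the start is in 1 list.

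The voltage sensor complex is represented by 3 genes. Cacna1s encodes the pore-forming and voltage-sensing subunit of the skeletal muscle calcium channel. In the list with pyruvate a peak of 411 bases covered its start, at chr1:137949017-137949428 of mm9, from 310 bases upstream to 101 bases inside the gene. Its width was at the 90.9 percentile of that list. The list without pyruvate had no peak there, and its nearest peak was 13796 bases away. That nearest peak was shared: it lay in the gene body, 14.0 kb (with pyruvate) and 14.1 kb (without) from the start in both lists and was 575 bases wide with pyruvate (chr1:137963036-137963611) and 325 bases wide without (chr1:137963224-137963549). The narrower of these lay wholly inside the wider. Cacna1s therefore kept an internal peak in both lists while the peak over its start was called in only 1.

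The 250 bases before the RefSeq start of 3 genes are shown because MyoD binds E-boxes, which have the letters CANNTG, and because the genes differ in where their peaks lie. Cacna1s had a peak over its start in 1 list, Atp2a1 had peaks on either side of its start but none over it, and Casq1 had none. The sequences are from RefSeq in GRCm38.p6, are read 5′ to 3′ on the strand of the gene, and have each E-box in capitals.
Cacna1s: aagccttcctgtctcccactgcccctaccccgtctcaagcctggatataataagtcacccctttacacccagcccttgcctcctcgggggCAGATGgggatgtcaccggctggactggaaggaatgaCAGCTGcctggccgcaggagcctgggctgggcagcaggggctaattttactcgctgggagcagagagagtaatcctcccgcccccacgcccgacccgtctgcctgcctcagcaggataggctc
Atp2a1: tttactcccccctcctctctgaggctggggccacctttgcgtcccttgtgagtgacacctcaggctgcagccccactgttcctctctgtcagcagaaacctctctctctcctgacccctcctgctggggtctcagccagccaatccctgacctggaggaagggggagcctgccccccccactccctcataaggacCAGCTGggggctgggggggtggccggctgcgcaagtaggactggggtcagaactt
Casq1: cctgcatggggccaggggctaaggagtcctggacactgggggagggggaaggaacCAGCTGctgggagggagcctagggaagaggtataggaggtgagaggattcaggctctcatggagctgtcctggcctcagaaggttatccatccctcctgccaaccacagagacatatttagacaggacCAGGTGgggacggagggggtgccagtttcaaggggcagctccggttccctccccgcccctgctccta
They lie at chr1:136052561-136052810 (plus strand), chr7:126463074-126463323 (minus strand) and chr1:172219896-172220145 (minus strand) of GRCm38.p6.

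The Cacna1s window held 2 E-boxes. The first, CAGATG, began 160 bases before the start. The second, of the form CAGCTG, began 123 bases before it. The peak over the start, which reaches 310 bases upstream, would include both if the RefSeq start is the start listed in the files. The files give the gene a body 56 bases longer than RefSeq does, so the starts may differ a little. The Atp2a1 window held 1 E-box, CAGCTG, 55 bases before the start. The Casq1 window held 2, of which the first, CAGCTG, began 195 bases before the start. The other began 67 bases before it and read CAGGTG. Of 32851 RefSeq promoter windows of the same 250 bases, 66.2% held CANNTG on either strand and 31.8% held at least 2 matches. The form CAGCTG was found in 13.0% of windows. The form CACCTG, on either strand (its reverse complement is the CAGGTG seen at Casq1), was found in 17.2%. Both are kinds of E-box, so these shares overlap. Windows were found for 6 of the 10 genes. Those of Jph2 and Casq2 held 1 and 2 E-boxes, that of Jph2 being CAGCTG, and the window of Ryr1 held 0. These are matches of letters in a short window and are not measured binding sites.

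Cacng1 encodes the gamma subunit of the same channel. It had 2 peaks in each list, and they were the best matched of all those at these genes. The peak over the start ran from 261 bases upstream to 132 bases inside with pyruvate (chr11:107577704-107578097, 393 bases) and from 248 upstream to 111 inside without (chr11:107577725-107578084, 359 bases). The internal peak was 470 bases wide with pyruvate (chr11:107575618-107576088) and 518 bases without (chr11:107575592-107576110). The centres of the paired peaks were 4 and 2 bases apart, against a median of 17.5 bases over all 8555 pairs. The group as a whole was less closely matched than that background. Over the 16 pairs at these genes the median was 39.25 bases. Centres lay within 50 bases in 10 of the 16 pairs (62.5%), against 86.4% of all pairs. Outside the gene, 2 further peaks within 50 kb upstream were present in both lists, one of them listed under the neighbouring channel subunit gene Cacng4.

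Stac3 encodes an adaptor protein that the skeletal voltage sensor needs to reach and work at the junction with the reticulum. Its single peak covered the start in both lists, at chr10:126938585-126938896 with pyruvate (311 bases) and chr10:126938618-126938913 without (295 bases). The deposited row names the upstream flank for the first and the gene body for the second. Both intervals cross the start, reaching 157 bases upstream and 154 inside in the first and 124 upstream and 171 inside in the second, and they share 278 bases. The row names the side of the start that holds more of the peak in each case. A peak 4126 bases past the end of Stac3, listed under Ndufa4l2 and 247 bases wide, was in the list without pyruvate alone.

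The release channel and its anchor are next. Ryr1 encodes the calcium release channel of the skeletal muscle reticulum and had 1 peak in each list, just inside the gene. With pyruvate it was 756 bases wide (chr7:29908671-29909427), the widest peak at any of these genes and at the 99.5 percentile of its list. Without pyruvate it was 319 bases wide (chr7:29908778-29909097), at the 78.9 percentile, and lay wholly inside the wider interval. The ratio of 2.37 was the highest of the 16 pairs at these genes. The rest of the 121.8 kb gene held no peak in either list. Downstream of Ryr1, a peak listed under Eif3k showed a like difference, 760 bases with pyruvate and 294 without, and a second Eif3k peak did not, at 290 and 324 bases.

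Trdn encodes triadin, which links the ryanodine receptor to calsequestrin. At 393.2 kb it is the longest of these genes, yet it held 1 peak in each list, 412 bases wide with pyruvate (chr10:32899595-32900007) and 337 bases without (chr10:32899671-32900008). They shared 336 bases and lay about 96.5 kb inside the gene, 24.5% of the way along it. There was no other peak within 50 kb of the gene in either list, and the nearest other peak of the same list was 152441 bases away with pyruvate and 833111 bases without. This is 0.25 peaks per 100 kb of gene body in each list, the lowest density among the 8 genes with peaks in both lists, against 17.4 at Atp2a1 with pyruvate.

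Calsequestrin, the calcium-binding protein of the reticulum lumen, has a skeletal form encoded by Casq1 and a cardiac form, also made in slow and developing skeletal muscle, encoded by Casq2. Neither had a peak in the list with pyruvate. Casq2 had 1 in the list without, 184 bases wide at the 19.5 percentile of widths (chr3:101945892-101946076), 92.6% of the way along the gene. The nearest peak of the list with pyruvate was 69281 bases away. A further 3 peaks lay within 50 kb of Casq2, 1 with pyruvate and 2 without, and none of them overlapped the other list. Casq2 was therefore the only gene of the 10 with peaks in the files and no shared peak.

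Casq1 had no row, under its symbol or a RefSeq synonym. In the RefSeq order of protein-coding genes it stands between Pea15a and Atp1a4, and Pea15a had no row either. The 27.1 kb of mm9 between the body of Dcaf8, the gene beyond Pea15a, and the body of Atp1a4 (chr1:174126524-174153644) held 0 peaks in either list. Atp1a4 had 1 peak in each list, 236 and 191 bases wide, which did not overlap. The absence at Casq1 is of called peaks at an unknown depth.

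Atp2a1 encodes the calcium pump of fast muscle fibres, which returns calcium to the reticulum. It had 3 peaks with pyruvate and 2 without. The upstream peak was 313 bases wide with pyruvate (chr7:133607726-133608039) and 351 bases without (chr7:133607774-133608125) and ended 1104 and 1152 bases before the start. The first internal peak was narrow in both lists, 183 bases (chr7:133604621-133604804) and 191 bases (chr7:133604638-133604829). The second internal peak, of 187 bases (chr7:133602710-133602897), was in the list with pyruvate alone, and the nearest peak of the other list was 1741 bases away. Its width was at the 15.0 percentile of its list. In both lists 2 further peaks, listed under the upstream neighbour Sh2b1, lay 2.6 and 11.5 kb from Atp2a1.

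Jph1 and Jph2 encode junctophilins, which span the gap between the transverse tubule and the reticulum. Jph1 had 3 peaks in each list, and every one had a partner. The peak at the start was the narrowest at these genes with pyruvate, 169 bases at chr1:17087876-17088045, and 187 bases without at chr1:17087907-17088094. It reached 3 bases into the gene with pyruvate and stopped 28 bases short of it without. With pyruvate its width equalled the smallest in the whole list (1.94 percentile), and without pyruvate it was at the 21.0 percentile. The other peaks lay at the far end: one inside the gene of 274 and 235 bases (chr1:16991438-16991712 and chr1:16991440-16991675), and one just past the listed end of 382 and 421 bases (chr1:16986791-16987173 and chr1:16986781-16987202). The files list a Jph1 body of 100.3 kb and RefSeq one of 155.8 kb in GRCm38.p6, so a peak in the flank may be inside a longer gene model; which end differs was not determined. No peak lay in the 96 kb between the peak at the start and the first at the far end.

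Jph2, the junctophilin most abundant in heart and also made in skeletal muscle, held the most peaks of these genes, 6 with pyruvate and 5 without, in a body of 61.8 kb. All lay inside the gene and the nearest to the start lay 10779 bases from it with pyruvate and 10807 without. At least 6 peaks with pyruvate were found at 2.38% of the named genes, and at least 5 without at 7.08%. Per 100 kb of gene body this is 9.72 peaks with pyruvate and 8.10 without, against 2.99 in each list at Jph1. From the start inwards, the widths with and without pyruvate were 375 and 340 bases for that nearest pair (chr2:163212575-163212950 with pyruvate), 295 and 172 bases about 32.9 kb in, and 424 and 258 bases about 44.0 kb in. The last ones were 332 and 360 bases at 50.3 kb and 347 and 283 bases at 52.8 kb.

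The peak with pyruvate of 213 bases at 39.1 kb (chr2:163184543-163184756) had no partner, and the nearest peak without pyruvate was 4659 bases away. The pair at 32.9 kb was the weakest match, with 50 shared bases and centres 183.5 bases apart (chr2:163190721-163191016 with pyruvate and chr2:163190599-163190771 without). It may be counted as 1 shared site or as neighbouring sites, depending on the overlap asked for.

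**Figure D4:**
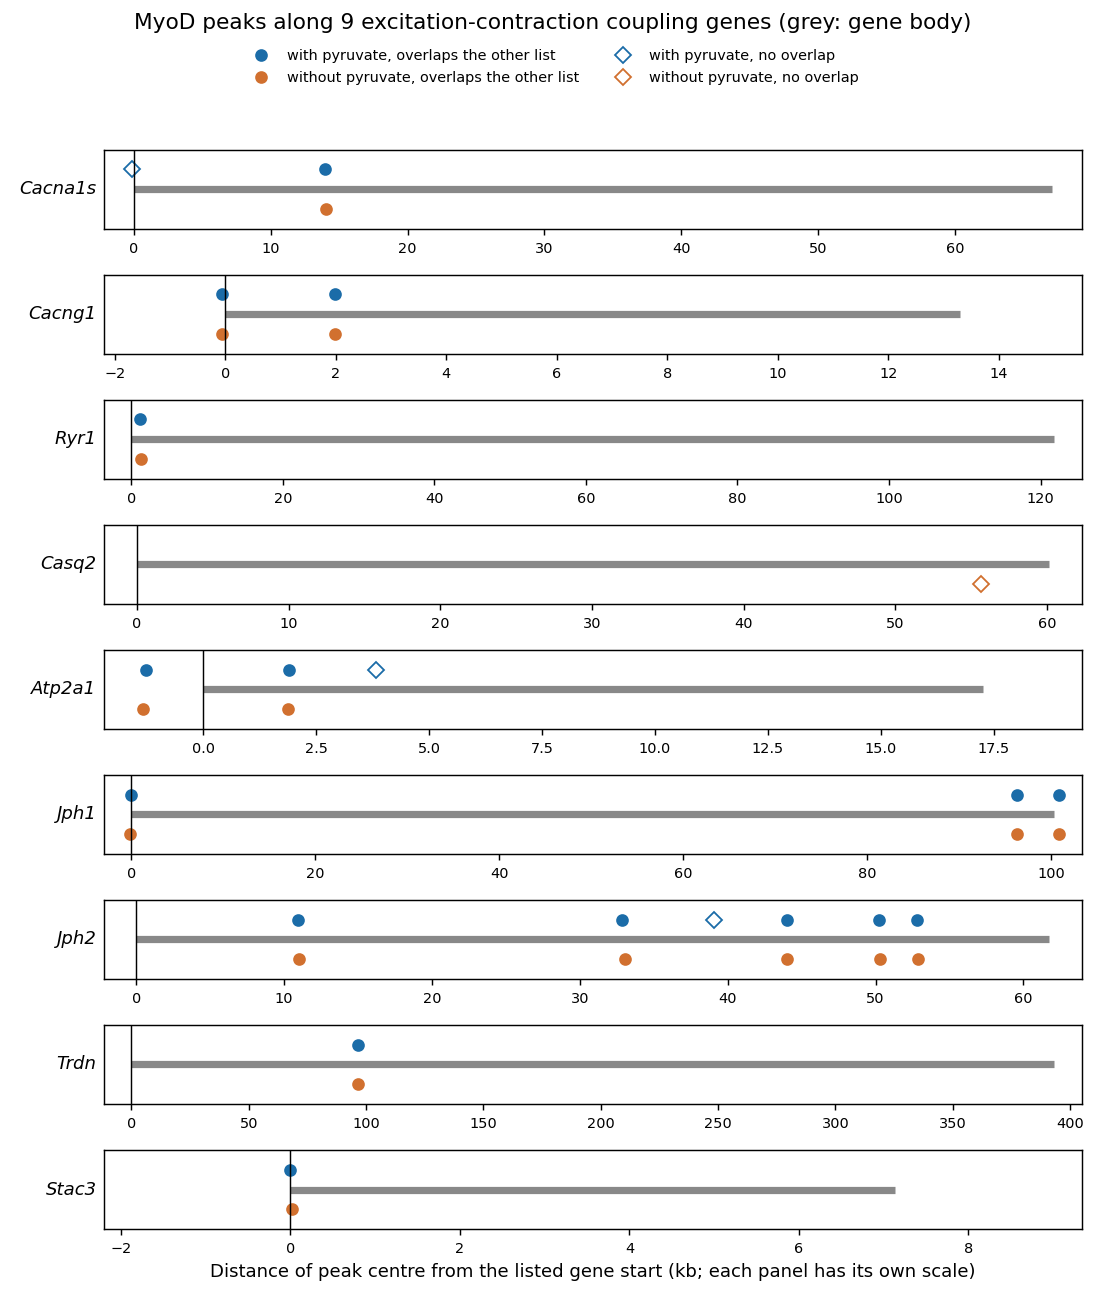
Peak centres along 9 genes, with the distance from the listed gene start in kb on a separate scale for each gene, the list with pyruvate above and the list without pyruvate below the grey gene body, and open diamonds for peaks with no overlap in the other list. The 16 pairs stand above each other, and the 4 open diamonds are at the start of Cacna1s, in Casq2, in Atp2a1 and in Jph2.

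Width, the one measure the files give per peak, was compared over the 16 pairs. The peak was wider with pyruvate in 10 of 16 pairs, against 37.9% of all 8555 pairs. The median ratio of the width with pyruvate to that without was 1.10 (interquartile range 0.92 to 1.33), against 0.92 (0.77 to 1.11) over all pairs. A ratio of at least 1.5 was found in 4 of the 16 pairs and in 6.67% of all pairs. In the other direction, a peak at least 1.5 times as wide without pyruvate was found in 0 of the 16 pairs and in 12.5% of all pairs. Which condition the wider peaks stand for rests on the sample titles. Those 4 were the Ryr1 peak (2.37), the internal Cacna1s peak (1.77) and the Jph2 peaks at 32.9 kb (1.72) and 44.0 kb (1.64). The lowest ratio was 0.89, at the upstream peak of Atp2a1. Width follows read depth and fragment length as well as binding, 5 of the 16 pairs are in Jph2, and there is no replicate, so the spread of this ratio between libraries of 1 condition is unknown.

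**Figure D5:**
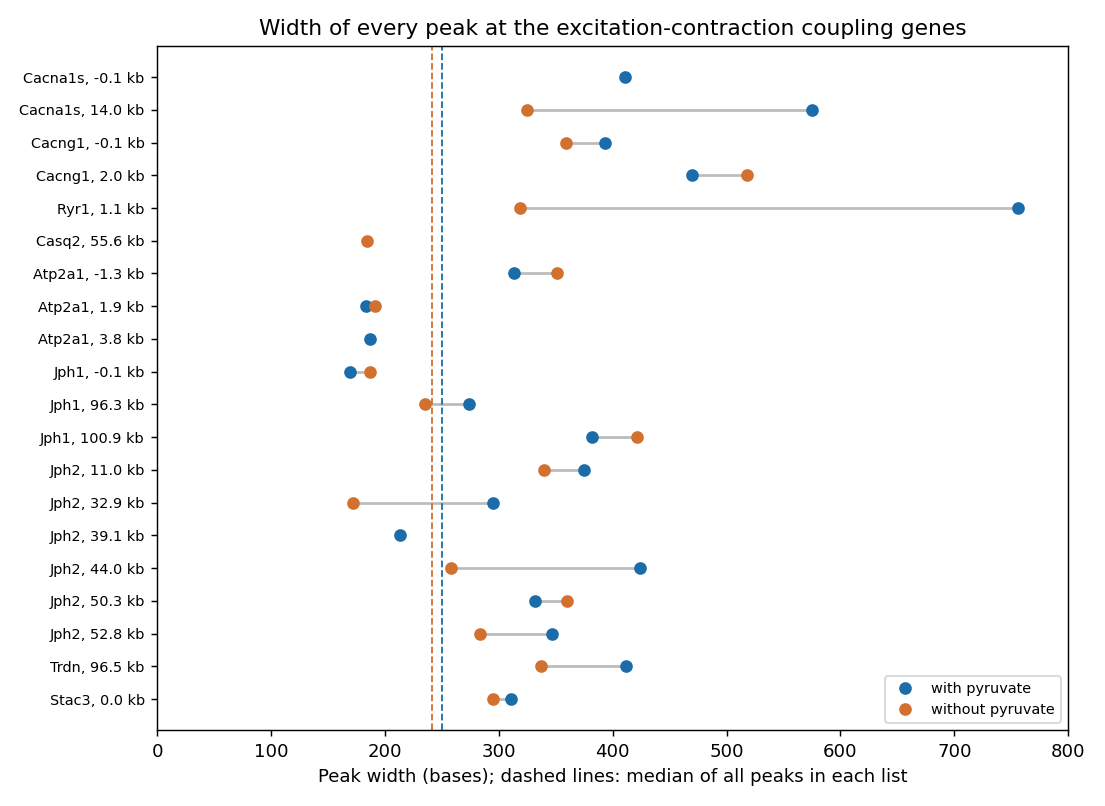
Width in bases (horizontal axis) of every peak at these genes with pyruvate and without, 1 line per site named by gene and distance of its centre from the start, with a grey line joining overlapping peaks and dashed lines at the medians of all peaks, 250 and 241 bases. Most points lie to the right of the dashed lines, and the longest joining line is that of Ryr1, from 319 to 756 bases.

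Other genes of the pathway were described from a list of 46 (channel subunits, other ryanodine receptors and pumps, reticulum proteins, membrane currents and calcium handling). Of these, 18 had a peak in both lists, or 39.1%, against 55.1% of the named genes and 15.2% of the RefSeq genes. A peak only with pyruvate was found at 8, or 17.4%, against 9.95% of the named and 2.62% of the RefSeq genes. A peak only without was found at 9, or 19.6%, against 35% of the named and 9.28% of the RefSeq genes. The other 11 had no row, whereas the named genes have a peak by definition. Peaks at these genes overlapped the other list in 30 of 50 cases with pyruvate, or 60% (95% exact interval 45.2 to 73.6), and in 30 of 60 without, or 50% (36.8 to 63.2). For the list without pyruvate this interval does not overlap that of the 17 peaks at the excitation-contraction coupling genes. For the list with pyruvate it does. The intervals treat peaks of 1 gene as separate observations, and 5 of those 17 peaks are in Jph2. Both gene lists were chosen with earlier results of these data known, so the contrast is a description and not a test. The pathway peaks were narrower, with a median of 250.5 bases against 319 in the list without pyruvate and 263 against 347 in the list with it; the part of width in this contrast was not tested.

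Among pathway genes with a peak in both lists, the widest peaks with and without pyruvate were 706 and 670 bases at Ryr3, a minor ryanodine receptor of developing muscle, and 483 and 465 bases at Slc8a1, a sodium-calcium exchanger. They were 373 and 457 bases at Pvalb, the calcium buffer parvalbumin of fast fibres, and 395 and 445 bases at Cacna2d1, another subunit of the calcium channel. Genes with a peak only with pyruvate included Camk2b, a calcium-dependent kinase (344 bases), Hrc, a calcium-binding protein of the reticulum (265 bases), and Sln, which inhibits the calcium pump (209 bases). Those with one only without pyruvate included Ryr2, the cardiac ryanodine receptor (364 bases), Camk2g (285 bases), Asph, whose locus also encodes the reticulum protein junctin (259 bases), and Speg, a muscle kinase (257 bases). Near the start, Cacnb1, the beta subunit of the calcium channel (376 and 268 bases), had a peak in both lists, as did Pvalb. In both lists a flank peak was found at Jsrp1, a reticulum protein that binds the channel (277 and 329 bases). The same held for Orai1, the store-operated calcium channel (272 and 279 bases). The start sites of Jsrp1 and Orai1 were not located, so their flank peaks may lie at either end of the gene. Of the 4 other family members of Jph1, Jph2 and Stac3, looked at after their values were seen, Jph3, Jph4 and Stac had no row and Stac2 had a peak only without pyruvate.

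The files also give pathway terms, and 3 of the genes, Cacna1s, Ryr1 and Atp2a1, carry the term for calcium signalling. Of the 83 other genes with that term, 45 had a peak in both lists, or 54.2%, close to the 55.1% of all named genes. Of the peaks at those 83 genes, 68.8% with pyruvate and 42.0% without overlapped the other list, near the values for all peaks. The term for oxytocin signalling was also carried by 3 of the genes, Cacna1s, Cacng1 and Ryr1. Of the 73 other genes with that term, 51 had a peak in both lists, or 69.9%, above the share of all named genes. At those 73 genes 68.6% of peaks with pyruvate and 48.3% of those without overlapped the other list. Both terms were looked at after the peaks of the 10 genes were known.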

How the data were processed

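MyoD ChIP libraries from myotubes with and without pyruvate were analysed, 1 per condition; the input samples were not analysed here. Bcl2fastq 2.19, Bowtie2 2.1.0, MACS2 2.1.1 and mouse build mm9 are named in the submitters' processing notes; for the calling threshold, the use of the inputs and the gene annotation, the sources used here give nothing. The deposited files give each peak's start and end and a gene body or 2000-base flank it touches, per the file headers; a peak across a start can be listed under only 1 of them. Their fold enrichment column holds 0 in every row with a number and was not used.

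Rows (13076 with pyruvate, 20902 without) were reduced to distinct peaks. Coordinates are printed as deposited, and width is end minus start. A peak was shared if it had at least 1 base in common with a peak of the other list; the partner is the peak with the most overlap. Start sites came from the listed gene bodies and strands, located for 5818 of 7235 genes (all 9 genes of the group with rows). For the rest, a peak in a flank of unknown side was counted as near the start. Shares carry exact (Clopper-Pearson) 95% intervals. RefSeq names and promoters are of GRCm38.p6; no coordinates were carried between builds. E-boxes were searched in the 250 bases before each start.

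All peaks of the 10 genes are described, and of the 46 pathway genes up to 4 per class, those with the widest peak; 1 gene that this rule names is not reported here. Neighbouring genes and pathway terms were chosen after values were seen. Genes and lists were chosen with earlier results of these data known. Overlap code was tested on simulated data. Python 3.11.15, numpy 2.4.6, scipy 1.17.1 and matplotlib 3.10.9 were used.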

Additional observations from a re-analysis of the deposited data

How the results depend on the processing

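Alternatives were peaks of at least 250 bases, the list without pyruvate reduced to its 11907 widest peaks, other start-site windows, located starts alone, and stricter overlap. A count was taken as moved beyond 1.5 times its main value, and a share when it left the 95% interval of its main value, which is wide here. By this, 7 of 29 recomputed values moved and 22 did not. With peaks of at least 250 bases, and with the widest peaks, 0 genes had a peak only without pyruvate, since the narrow Casq2 peak drops out by construction, and 100% of the peaks left at these genes in that list (12 of 12 and 13 of 13) had a partner, against 45.1% and 58.3% of all peaks left. In the list with pyruvate 12 of 15 (80%) and 13 of 19 (68.4%) had one, against 66.5% and 58.5% of all peaks. The 8 genes with peaks in both lists stayed 8 in either case. With a window of 1000 bases, 3 genes had a peak near the start in both lists and 2 only with pyruvate: Ryr1 joined Cacna1s, as its peak without pyruvate begins 1073 bases inside, and Atp2a1 dropped out. With peaks of at least 250 bases, 5 pathway genes had a peak only with pyruvate. At that width 4 genes of the group had a peak near the start in both lists, as the narrow Jph1 peak dropped out. With a reciprocal overlap of 50%, or centres within 100 bases, 14 of 19 and 14 of 17 peaks were shared (73.7% and 82.4%), against 68.2% and 42.0% of all peaks by the first rule and 69.0% and 42.5% by the second, the Ryr1 pair and the Jph2 pair at 32.9 kb no longer counting. No paired analysis was possible because there is 1 library per condition, and leaving out a replicate was not possible for the same reason. Read depth and peak enrichment are unknown, which limits every absence given here.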
